A study of Mus musculus with 4 samples.

Results

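The 10 genes described here encode the constant regions of mouse antibodies and the J chain: Ighm, Ighd, Igha, Ighg1, Ighg2b, Ighg2c and Ighg3 for the heavy chains, Igkc and Iglc2 for the light chains, and Jchain. They were taken by symbol from single-cell count matrices of liver cells and are 10 of 32285 genes in each matrix. The 4 libraries came from male mice of the strain Cyr61fl/fl, aged 24 weeks, after 12 weeks on a diet that causes non-alcoholic steatohepatitis (NASH, a fatty liver disease with inflammation and scarring). Genotype was labelled KO in 2 libraries (KO 1 and KO 2) and Control in 2 libraries (Control 1 and Control 2). Both groups carry the floxed Cyr61 strain, and the labels do not state which Cre or which cells carried the deletion, or whether a library is 1 animal. Livers were frozen in serum with DMSO, thawed and digested, and dead cells were taken out on a column before droplet capture.

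Each antibody is built from paired heavy and light chains, and the heavy chain constant gene fixes its class: mu and delta before class switching, gamma, alpha or epsilon after it. Resting naive B cells make IgM and IgD together from long transcripts of the same locus, whereas plasma cells drop IgD and fill much of their RNA with the transcripts of 1 heavy and 1 light chain. IgA made by plasma cells of the gut and its drainage reaches the liver and bile, and J chain is the small protein that links secreted IgA and IgM into polymers.

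In build GRCm38 the 7 heavy chain genes stand in a row on the minus strand of chromosome 12, in the order Ighm (chr12:113418558-113422730), Ighd, Ighg3, Ighg1, Ighg2b, Ighg2c and Igha (chr12:113254830-113260236). Class switching deletes the genes that lie before the one to be used. Igkc is a single constant exon at chr6:70726435-70726966 on the plus strand, Iglc2 lies at chr16:19198396-19200351 and Jchain at chr5:88519809-88527891, both on the minus strand.

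J chain joins the tailpiece at the end of the secreted mu and alpha chains, and the alignment shows how much of the coding sequence these 2 classes share there. The sequences were read from the reference transcripts of build GRCm38, where Ighm and Igha both lie on the minus strand of chromosome 12. The Ighm tailpiece is at chr12:113420870-113420923 and the Igha tailpiece at chr12:113258771-113258824. Capitals mark bases that are the same in both, which held for 35 of 54 bases (64.8%).
Ighm tailpiece: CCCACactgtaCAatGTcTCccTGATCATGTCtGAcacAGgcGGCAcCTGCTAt
Igha tailpiece: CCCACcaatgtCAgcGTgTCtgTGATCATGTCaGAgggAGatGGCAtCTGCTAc

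Iglc2 and Iglc3 are near copies among the lambda constant genes, so reads can be hard to assign between them. The last 300 coding bases of Iglc2 (chr16:19198539-19198838) and of Iglc3 (chr16:19065368-19065667), both on the minus strand of GRCm38, differ at 11 positions (96.3% identity), and capitals mark those bases. Iglc1, the other lambda gene with many counts, had 72.3% identity with Iglc2, and Ighg2b and Ighg2c had 85.6%. Counts of Iglc2 against Iglc3 are uncertain for that reason.
Iglc2: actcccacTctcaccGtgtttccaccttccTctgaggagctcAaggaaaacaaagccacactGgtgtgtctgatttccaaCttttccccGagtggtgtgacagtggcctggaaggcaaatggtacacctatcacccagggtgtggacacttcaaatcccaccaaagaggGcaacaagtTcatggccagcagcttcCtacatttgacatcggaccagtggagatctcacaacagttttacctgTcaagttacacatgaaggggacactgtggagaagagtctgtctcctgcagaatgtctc
Iglc3: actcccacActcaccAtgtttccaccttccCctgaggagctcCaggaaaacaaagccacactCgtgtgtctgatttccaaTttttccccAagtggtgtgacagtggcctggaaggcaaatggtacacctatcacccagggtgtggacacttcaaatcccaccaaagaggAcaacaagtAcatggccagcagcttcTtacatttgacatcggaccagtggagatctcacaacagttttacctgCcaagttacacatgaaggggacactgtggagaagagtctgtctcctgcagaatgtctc

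The matrices held 7241 and 5373 barcodes in KO 1 and KO 2, against 4852 and 7253 in Control 1 and Control 2. Total counts of unique molecular identifiers (UMIs) were 17187561 and 17925516 in the KO libraries, against 8290677 and 20537236 in the Control libraries. Control 1 was the shallowest, with a median of 1203 UMIs per kept cell against 1848.5 to 2838 in the other libraries. Ccn1, the current symbol of the deleted gene Cyr61, had 0 and 12 UMIs in the KO libraries, against 184 and 149 in the Control libraries. B cell-like cells were 36.8% and 32.3% of kept cells in the KO libraries, against 13.6% and 26.0% in the Control libraries. The 10 genes together took 0.510% and 0.538% of all UMIs in the KO libraries, against 0.342% and 0.292% in the Control libraries. Pairs of libraries shared 6 to 22 barcode sequences, none of them an antibody-secreting barcode.

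Antibody-secreting barcodes, defined by 5 or more Jchain UMIs, were rare in every library. There were 19 and 15 in KO 1 and KO 2, against 9 and 11 in Control 1 and Control 2, or 54 of 24719 barcodes in all. Their share was 0.262% (95% exact binomial interval 0.158 to 0.409) and 0.279% (0.156 to 0.460) in the KO libraries, against 0.185% (0.0849 to 0.352) and 0.152% (0.0757 to 0.271) in the Control libraries. Both KO libraries lay above both Control libraries, at 0.271% ± 0.0119 in KO and 0.169% ± 0.0239 in Control (SD, n = 2 each). The exact two-sided permutation test over libraries gave p = 0.333, the smallest that 2 against 2 allow (adjusted p = 0.889 over 12 comparisons of shares). The 4 binomial intervals overlap one another and cover counting error only.

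Plasma cell genes that the definition did not use were found in 17 to 47 of the 54 barcodes. Xbp1, the transcription factor of the secretory programme, had a UMI in 47 of 54 (87.0%), against 6.52% of B cell-like cells and 6.86% of T cell-like cells. Mzb1, an endoplasmic reticulum chaperone cofactor of B lineage cells, had one in 46 (85.2%), against 30.8% and 0.486%. Derl3, which helps remove misfolded proteins, was found in 34, Tnfrsf17, the survival receptor BCMA, in 26, and Sdc1, the plasma cell surface marker CD138, in 17. The secreting barcodes were deeper, with a median of 5232.5 UMIs against 1860.5 in B cell-like cells and 2153 in T cell-like cells. Thinned to 500 UMIs each, Xbp1 was left in 38.9% of secreting barcodes, against 1.84% of B cell-like and 1.502% of T cell-like cells, and Mzb1 in 61.1%, against 9.95% and 0.126%. Siglech, a marker of plasmacytoid dendritic cells, which can also carry Jchain transcripts, had no UMI in the 54. That allows up to 5.56% of such barcodes with a Siglech UMI, and sets no limit on cells that express the gene without yielding one. Clustering without immunoglobulin genes placed 28 in B cell-like clusters, 14 in T cell-like clusters and 7 among cycling cells, and 5 had been left out by the filters or as doublets. Cd3e, a T cell gene, had a UMI in 8 of the 54, and whether those droplets held more than 1 cell was not tested. No barcode held exactly 5 Jchain UMIs. Just inside the threshold, 6 barcodes with up to 9 Jchain UMIs held 14 to 165 heavy chain UMIs (median 20.5), and just outside it 11 barcodes with 3 or 4 held 0 to 61 (median 28).

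IgA was the commonest class among the secreting barcodes of KO 1, KO 2 and Control 1. In Control 2 there were 5 Ighm and 4 Igha barcodes, and 1 of the 5 was a barcode of 50580 UMIs, of which 0.656% were immunoglobulin. That lead of IgM depended on the setting: Control 2 had 4 and 4 with 10 or more Jchain UMIs, and 3 and 3 over kept cells. A class could be called in 53 of 54, where at least 10 heavy chain UMIs were present and 1 gene held at least 80% of them. Over the 4 libraries, Igha was the class of 36 barcodes, Ighm of 9, Ighg2b of 3, Ighg1 and Ighg2c of 2 each, and Ighg3 of 1, with none called for Ighd or for Ighe, the IgE gene. Since Jchain chose the barcodes, secreting cells of a class with less Jchain can be missed, and the mix of classes holds for this definition only. The barcode without a call was in KO 1 and held 6 Jchain, 6 Ighg2c and 6 Ighg3 UMIs among 7316.

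By library, Igha was called in 12 of 18 and 14 of 15 secreting barcodes of KO 1 and KO 2, against 6 of 9 and 4 of 11 of Control 1 and Control 2. The Igha shares were thus 66.7% (exact interval 41.0 to 86.7) and 93.3% (68.1 to 99.8) in KO, against 66.7% (29.9 to 92.5) and 36.4% (10.9 to 69.2) in Control. KO 1 and Control 1 had the same share, so the groups did not separate (exact permutation p = 0.667, adjusted p = 0.889). With 3 or more Jchain UMIs as the definition, they did, with 15 of 21 and 15 of 16 in KO against 6 of 10 and 4 of 11 in Control. With 10 or more they did not, with 11 of 17 and 11 of 12 in KO against 6 of 9 and 4 of 10 in Control. Nor did they over kept cells, with 12 of 18 and 13 of 14 against 6 of 9 and 3 of 7. Ighm was called in 1 and 0 secreting barcodes of the KO libraries, against 3 and 5 of the Control libraries. That is 5.56% (0.141 to 27.3) and 0% (up to 21.8) in KO, against 33.3% (7.49 to 70.1) and 45.5% (16.7 to 76.6) in Control. Both KO libraries lay below both Control libraries, with exact permutation p = 0.333 and adjusted p = 0.889, so the test cannot reach 0.05 at this number of libraries. IgG classes were called in 5 and 1 barcodes in KO, against 0 and 2 in Control. Both Ighg1 barcodes were in KO 1 and the Ighg3 barcode was in Control 2.

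**Figure D1:**
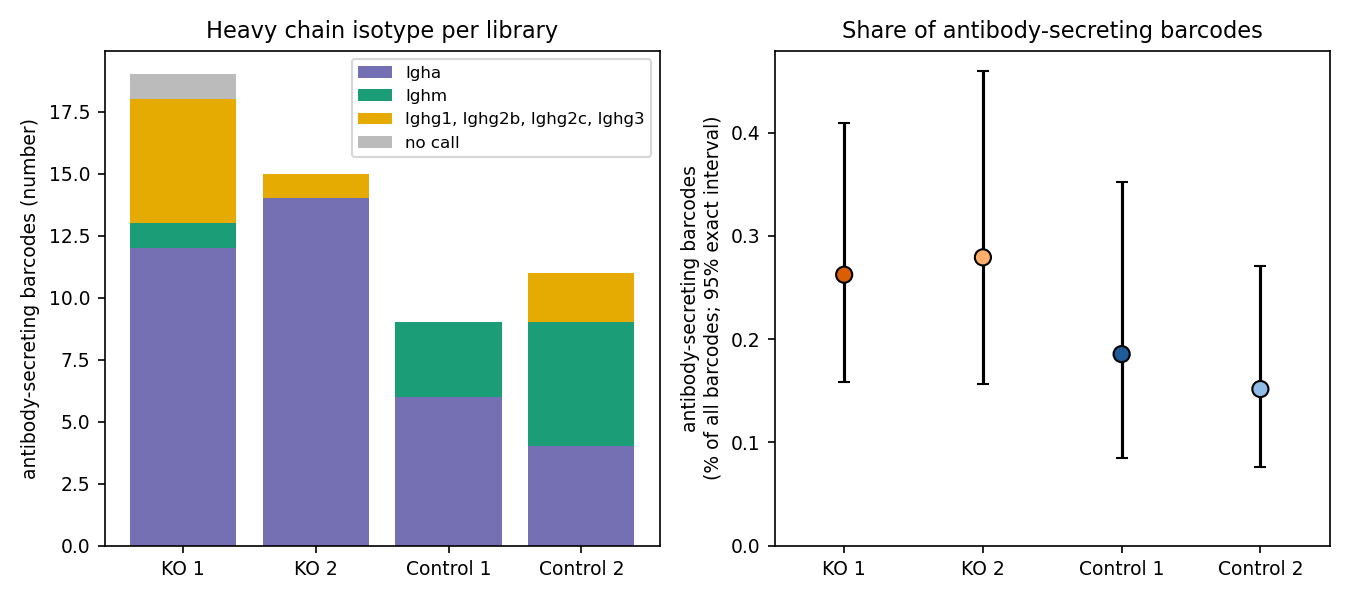
Antibody-secreting barcodes (5 or more Jchain UMIs) in KO 1, KO 2, Control 1 and Control 2: the stacked bars count barcodes by heavy chain class, and the points give their share of all barcodes in percent with 95% exact binomial intervals. Igha was called in 12 and 14 barcodes of the KO libraries, against 6 and 4 of the Control libraries, and Ighm in 1 and 0, against 3 and 5.

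A call required 1 gene to hold at least 80% of a barcode's heavy chain UMIs, and the median share of that gene ran from 91.9% (the Ighg3 barcode) and 93.4% (Ighg2b) to 100% (Ighm). Igha barcodes held 14 to 1633 Igha UMIs (median 339), which were a median 99.7% of their heavy chain UMIs, with 6 to 597 Jchain UMIs (median 70). Ighm barcodes held 23 to 2205 Ighm UMIs (median 210) and 8 to 742 Jchain UMIs (median 48). The Ighg1 barcodes held 648 and 1128 UMIs of Ighg1 and 62 and 166 of Jchain, so secreting barcodes of the IgG classes carried J chain transcripts too, as the definition requires. A median of 25.1% and 23.0% of a secreting barcode's UMIs were immunoglobulin transcripts in KO 1 and KO 2, against 39.0% and 37.5% in Control 1 and Control 2. Both KO medians lay below both Control medians (exact permutation p = 0.333, adjusted p = 0.889). The same barcodes were deeper in KO, with median totals of 5272 and 8739 UMIs against 3085 and 2950 in Control, and the part of depth in the difference was not tested.

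The light chain of 51 secreting barcodes was kappa and that of 2 was lambda. Both lambda barcodes were IgA barcodes of KO 1 with 0 Igkc UMIs, and they used Iglc1, with 1173 and 1151 UMIs against 19 and 15 of Iglc2. Variable segments were seen for both chains in 9 secreting barcodes, and no pair of segments occurred in more than 1. One IgM barcode of Control 1, singled out after its values were seen, used Ighv11-2 with Igkv14-126, a pairing known from mouse B-1 cells that bind phosphatidylcholine.

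Summed over secreting barcodes, Igha had 38711 and 58702 CPM (counts per 1000000 UMIs of the summed cells) in KO 1 and KO 2, against 68109 and 10488 CPM in Control 1 and Control 2. The groups overlapped, and Control 2 was the lowest. Ighm had 6449 and 254 CPM for KO, against 49858 and 21245 CPM for Control, with both KO libraries below both Control libraries. In Control 1 a single IgM barcode held 2205 of the 2374 Ighm UMIs. The place of Control 1 for Ighm thus rests mostly on that barcode, and the order of the libraries without it is not given. Igkc had 130600 and 146967 CPM for KO, against 235598 and 91599 CPM for Control, and Jchain had 17928 and 19723 CPM against 41353 and 10322 CPM. Control 1 was the highest and Control 2 the lowest for both, and the place of Control 2 rests on 1 of its barcodes, described with the IgG genes. Iglc2 had 1652 and 1918 CPM for KO, against 1701 and 2666 CPM for Control.

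Most UMIs of each IgG gene lay in 1 or 2 libraries. Ighg1 had 14741 CPM in KO 1 and none in the other 3 libraries. Ighg2b had 1254 and 104 UMIs in KO, against 2 and 0 UMIs in Control. Ighg2c had 5486 and 33.4 CPM for KO, against 126 and 1162 CPM for Control. Ighg3 had 49.8 and 6.68 CPM for KO, against 0 and 6888 CPM for Control. Ighd had 1 UMI in KO 1 and 0 in the other libraries. One barcode of Control 2, in the cycling cluster, held 50580 of the secreting UMIs of that library, of which 0.656% were immunoglobulin. Without it, Control 2 had 42298 CPM of Ighm, 22066 CPM of Igha, 188790 CPM of Igkc and 21389 CPM of Jchain, and then both Control libraries lay above both KO libraries for Igkc and Jchain.

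**Figure D2:**
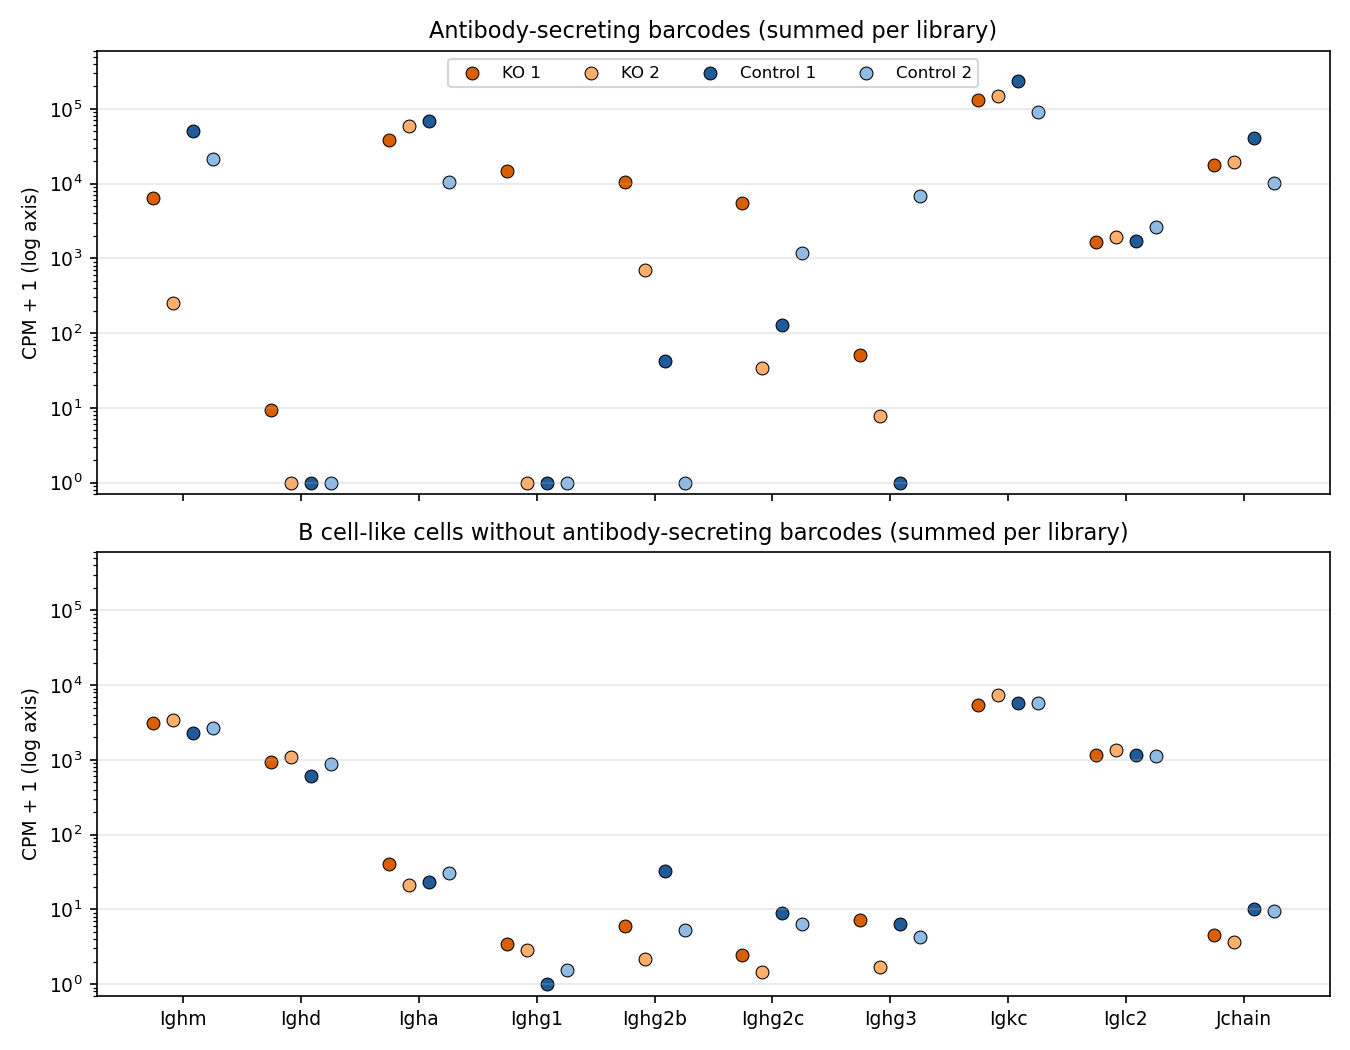
Levels of the 10 genes in CPM plus 1 on a log axis, for antibody-secreting barcodes (upper panel) and B cell-like cells without them (lower panel), with 1 point per library. Igha lies at 10488 to 68109 CPM in secreting barcodes and at 20.4 to 39.0 CPM in B cell-like cells, and Ighd at 0 to 8.30 CPM and at 604 to 1101 CPM.

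The next comparison set secreting barcodes against the other B cell-like cells of the same library, in the 3 libraries with at least 10 secreting barcodes (KO 1, KO 2 and Control 2), with the library as a block. Control 1, with 9, was left out of this fit. B cell-like cells were named from B lineage markers, among them Cd79a, Cd79b, Ms4a1, Ebf1, Pax5, Cd22 and Bank1, in clusters made without immunoglobulin genes. Of 9240 genes tested with edgeR's quasi-likelihood test, 1653 (17.9%) passed an adjusted p of 0.05, 6.98% higher and 10.9% lower in secreting barcodes. Of the 9 genes other than Jchain, 8 were tested, of which 6 rose and 1 fell. The 6 include Ighg2b, Ighg2c and Ighg3, which were rare in B cell-like cells of KO 1, KO 2 and Control 2. Ighg2b had 24, 5 and 16 UMIs there, Ighg2c 7, 2 and 20, and Ighg3 30, 3 and 12. These IgG genes passed the filter on low counts largely through the secreting barcodes, so their rise is a description and no test. With edgeR's robust option (the robust spread), which lets genes of outlying spread depart from the pooled one, 2 of the 8 rose and 1 fell. Other genes still borrow most of their spread there, so their calls are no test of their own spread between libraries. Jchain chose the barcodes and is given no test.

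The heavy chain genes of switched classes had the largest differences on the higher side. Igha was higher by 9.96 ± 0.26 on the log2 scale (SE), Ighg2c by 9.14 ± 0.47, Ighg2b by 8.44 ± 0.46 and Ighg3 by 6.70 ± 0.55. Those errors come from a spread pooled over all genes, since edgeR shared it fully here, and they leave out how far the gene itself varied between libraries. The robust spread was added after the data were seen. With it, the SE was 1.44 for Igha, 2.06 for Ighg2c, 3.74 for Ighg2b and 3.504 for Ighg3. None of the 4 then passed, with adjusted p = 0.0927 for Igha, 0.167 for Ighg2c, 0.354 for Ighg2b and 0.414 for Ighg3 by edgeR. These are the highest of each gene's alternatives, except that Ighg3 reached 0.441. Leaving out the Control 2 barcode with 50580 UMIs as well, Igha was higher by 10.31 ± 0.42 and Ighg2c by 9.79 ± 0.53, and both passed with the robust spread. In each of the 3 libraries Igha was far higher in secreting barcodes. Those of KO 1 had 38711 CPM against 39.0 CPM in B cell-like cells of KO 1, secreting barcodes of KO 2 had 58702 CPM against 20.4 CPM in B cell-like cells of KO 2, and those of Control 2 had 10488 CPM against 30.03 CPM.

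Igkc was higher by 4.29 ± 0.16 (adjusted p = 8.27e-159) and kept that call with the robust spread (SE 0.12), with a highest adjusted p of 0.00758 over its alternatives. Igkc still borrowed the pooled spread in both of these fits, so the kept call is no test of its own spread between libraries. With all 4 libraries its robust SE was 0.41. Iglc2 was higher by 0.73 ± 0.26 (adjusted p = 0.0296), and the call was lost without KO 1 (adjusted p = 0.211) and without KO 2 (adjusted p = 0.234, the highest of its alternatives). Ighd was lower in secreting barcodes in this fit and in each alternative run, with a log2 difference of -8.45 ± 0.61 (adjusted p = 4.54e-41). That fitted value rests on 1 UMI, so counts describe it better: secreting barcodes of the 3 libraries held 1 Ighd UMI among 366499 and B cell-like cells 12384 among 12707881. The secreting level was 0.280% of the B cell-like level (exact counting interval 0.00709 to 1.56%).

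Ighm, the gene of the unswitched class, did not pass the test, at 0.50 ± 0.28 (adjusted p = 0.219, robust SE 2.24). It moved with the library left out: it was -0.93 (adjusted p = 4.5e-05) without Control 2 and 1.98 (adjusted p = 0.00081) without KO 2, and 1.88 with all 4 libraries (adjusted p = 8.62e-07). Over its alternatives the adjusted p ran up to 0.928. The secreting barcodes of KO 2 had 254 CPM of Ighm against 3431 CPM in its B cell-like cells, and those of Control 2 had 21245 CPM against 2670 CPM. With all 4 libraries and the robust spread, Igha (10.58 ± 1.17), Igkc (4.78 ± 0.41) and Iglc2 (0.91 ± 0.22) rose and Ighd fell.

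**Figure D3:**
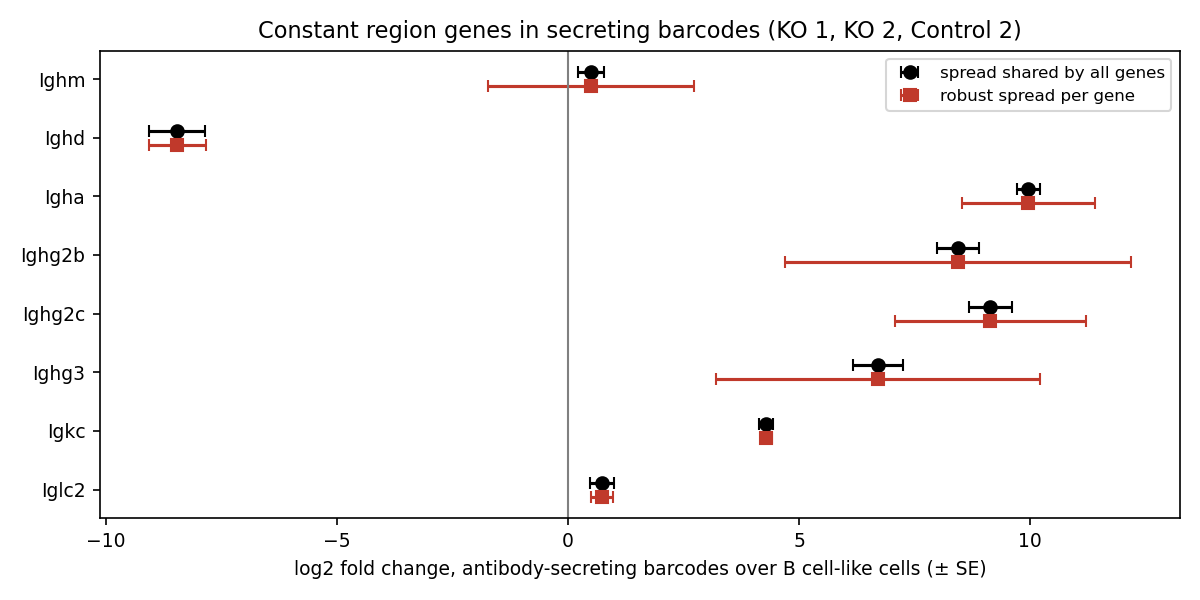
Log2 fold change of each tested gene in antibody-secreting barcodes over B cell-like cells of the same library (KO 1, KO 2 and Control 2). Bars are 1 SE, from the spread shared across genes (black) and from edgeR's robust option, which frees outlying genes from it (red). The robust bars are much longer for Igha (1.44 against 0.26) and the IgG genes, and short for Igkc (0.12 against 0.16).

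Genes that help make and export antibody rose with these constant genes. Of 27 tested genes of the secretion machinery, 25 were higher in secreting barcodes and none lower, with a median log2 difference of 2.81 against -0.33 over all genes tested. They include Derl3 (8.09 ± 0.52), the chaperone Hsp90b1 (3.74 ± 0.28), the chaperone partner Sdf2l1 (5.05 ± 0.41) and the disulfide isomerase Txndc5 (3.92 ± 0.34). Of 17 genes of the plasma cell programme, 12 were higher and 2 lower (median 4.42). Mzb1 (3.82 ± 0.29), Xbp1 (4.54 ± 0.36), Eaf2 (5.34 ± 0.42) and Tnfrsf17 (10.11 ± 0.63) were among the 12. Tnfrsf17 had 43, 76 and 5 UMIs in the secreting barcodes of KO 1, KO 2 and Control 2, against 2, 0 and 1 in their B cell-like cells.

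Of 27 genes of the B cell receptor and B lineage, 22 were lower in secreting barcodes and 2 higher (median -2.45). The comparison cells were named from 8 of the 27, Ebf1, Ms4a1 and Bank1 among them, so their lower values were partly set by that choice and are given as a description. Of the other 19, 14 were lower and 2 higher (median -1.97), and without the secreting barcodes in T cell-like clusters 13 were lower and 1 higher. The cells were also clustered on such genes, so these counts are no independent test. The lineage factor Ebf1 was at a log2 difference of -4.65 ± 0.34, with 21, 8 and 6 UMIs in the secreting barcodes of KO 1, KO 2 and Control 2. Ms4a1, which encodes CD20, was at -3.41 ± 0.37, the scaffold gene Bank1 at -5.51 ± 0.51 and Fcer2a, the low-affinity IgE receptor CD23, at -5.05 ± 0.52. Of 6 tested receptors for antibody, 2 were lower and none higher, among them Fcmr, the IgM receptor, at -5.53 ± 0.53. Of 7 tested genes of class switching and the germinal centre, 2 were higher (Basp1 and Fas) and 2 lower (Irf8 and Bcl6). The counts of the lists for secretion, plasma cells and B lineage were the same with the robust spread. The SE values of the listed genes come from the spread pooled over all genes. The Control 2 barcode with 50580 UMIs is part of these sums, and the list counts without it are not given.

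In the B cell-like cells themselves, 2472 and 1601 in KO 1 and KO 2 against 610 and 1731 in Control 1 and Control 2, transcripts of the unswitched classes prevailed. Ighm made up 76.1% and 75.3% of heavy chain UMIs in KO, against 77.1% and 74.2% in Control, and Ighd 22.6% and 24.2% against 20.6% and 24.6%. The groups overlapped for both shares (exact permutation p = 1 for each). Igha made up 0.947% and 0.447% in KO, against 0.765% and 0.834% in Control. Both Ighm and Ighd were detected in 70.9% and 82.9% of cells in KO, against 40.0% and 71.6% in Control, with median depths of 1693 and 2375 UMIs against 1074.5 and 2062, so the lowest share was in the shallowest library.

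Cells of a switched class were few. Of cells with at least 3 heavy chain UMIs, 10 of 2140 and 4 of 1497 in KO were switched, against 7 of 347 and 7 of 1509 in Control. The shares were 0.467% (exact interval 0.224 to 0.858) and 0.267% (0.0728 to 0.683) in KO, against 2.02% (0.815 to 4.11) and 0.464% (0.187 to 0.953) in Control. Control 1 was the highest, and the other 3 libraries lay close together (exact permutation p = 0.667, adjusted p = 0.889). Without Control 1 the difference in percentage points was -0.0966, against -0.873 with it. Among the switched cells, Igha was the largest gene in 6 and 3 cells of KO, against 2 and 1 of Control, and Ighg2b in 2 and 0 against 4 and 2.

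The abundant genes did not pass the test between KO and Control in B cell-like cells. Ighm averaged 3280 ± 213 CPM in KO and 2465 ± 290 CPM in Control (SD, n = 2 each), with 3130 and 3431 CPM against 2260 and 2670 CPM in the single libraries. Ighd had 931 and 1101 CPM for KO, against 604 and 885 CPM for Control. Neither gene's groups overlapped, which is a description only, as the share of all genes without overlap is not given. The fitted log2 differences were 0.29 ± 0.18 for Ighm (adjusted p = 0.575) and 0.31 ± 0.19 for Ighd (adjusted p = 0.564). Igkc had 5461 and 7321 CPM for KO, against 5687 and 5718 CPM for Control, at 0.04 ± 0.19. Iglc2 had 1169 and 1337 CPM for KO, against 1174 and 1140 CPM for Control, at -0.01 ± 0.16. Both light chain genes overlapped between groups.

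The rarer transcripts Ighg2c and Ighg2b had lower mean levels in KO and did not pass the test. Ighg2c had 1.45 and 0.47 CPM for KO, against 7.91 and 5.46 CPM for Control, at -2.69 ± 0.61 (adjusted p = 0.0599). The groups did not overlap for Ighg2c, which rests on 7 and 2 UMIs in KO against 6 and 20 in Control. Ighg2b had 4.98 and 1.18 CPM for KO, against 31.7 and 4.37 CPM for Control (-1.93 ± 0.72, adjusted p = 0.301), with Control 1 far above the rest. Igha had 39.0 and 20.4 CPM for KO, against 22.4 and 30.03 CPM for Control, and the groups overlapped. Jchain had 3.52 and 2.61 CPM for KO, against 9.23 and 8.46 CPM for Control, without overlap. Barcodes with 5 or more Jchain UMIs had been taken out of these cells, so the Jchain values are a description with no test.

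Of the other 9 genes, 8 passed the filter on low counts in B cell-like cells and 0 were called by edgeR's quasi-likelihood test, where 0.475% of 9899 genes were called (47). At an unadjusted p of 0.05 edgeR gave 2 of the 8 (11.6% of all genes), and DESeq2 gave 2 and called 0 after adjustment. Ighg1, with 2.49 and 1.89 CPM for KO against 0 and 0.55 CPM for Control, was too low to test. Leaving out KO 1 called 2 genes, Ighg2b (-3.501) and Ighg2c (-3.73), and leaving out Control 2 called Ighg2b (-3.38). Ighg2c was also called with immunoglobulin genes left out of the library sizes (adjusted p = 0.0454), in an adjusted p range of 0.000288 to 0.571 over its alternatives. The clusters that held the B cell-like cells differed as well. Cluster 4 held 38.9% and 58.9% of them in KO, against 13.3% and 26.9% in Control, and cluster 6 held 36.8% and 21.9% against 78.5% and 48.5%. In cluster 6 Ighg2c had 2 and 0 UMIs in KO, against 5 and 19 UMIs in Control. In cluster 4 it had 2 and 2 UMIs in KO, against 0 and 0 in Control, and in cluster 5 it had 3 and 0 against 1 and 1, so the direction was not the same in the 3 clusters. Jchain had 2 to 12 UMIs per KO library and 0 to 14 per Control library in each cluster. Its groups overlapped in clusters 5 and 6, and in cluster 4 KO was lower, at 0.738 and 0.983 CPM against 26.4 and 4.31 CPM in Control. The p-values here measure only the spread between libraries.

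Lambda light chains took 28.7% and 26.2% of light chain UMIs of B cell-like cells in KO, against 29.3% and 28.2% in Control (exact permutation p = 0.667, adjusted p = 0.889). By cell, 12.3% and 8.33% of B cell-like cells with a light chain call were lambda in KO, against 13.4% and 10.3% in Control. Among secreting barcodes 2 of 53 calls were lambda, and that difference was not tested. Iglc2 was the largest lambda gene, with 15.3% and 13.5% of light chain UMIs in KO, against 14.6% and 14.3% in Control. Cluster 5, with the shallowest B cell-like cells, had fewer Iglc2 transcripts in each library, at 510 and 516 CPM for KO against 608 and 422 CPM for Control, than cluster 4 with 1203 and 1434 CPM against 1180 and 1199 CPM.

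Over all kept cells, where the share of B cells and the level per cell cannot be told apart, most of the 10 genes had higher values in KO. Ighm had 1129 and 978 CPM for KO, against 613 and 718 CPM for Control (log2 difference 0.69 ± 0.21, adjusted p = 0.0978). Igkc had 2791 and 3201 CPM for KO, against 2098 and 1601 CPM for Control (0.74 ± 0.22, adjusted p = 0.0915). The groups did not overlap for either gene, nor for Ighd, with 302 and 286 CPM against 65.0 and 181 CPM, or Iglc2, with 390 and 360 CPM against 135 and 250 CPM. The share of all genes without overlap is not given beside these, so the lack of overlap is a description and no result about the genes. Jchain overlapped, with 143 and 176 CPM for KO against 261 and 53.5 CPM for Control. None of the 9 tested genes was called by edgeR, where 9.56% of 14179 genes were, and 7 of the 9 had an unadjusted p under 0.05 (28.7% of all genes), while DESeq2 called 4. The single libraries decide this count: without Control 1 edgeR called 5, without Control 2 it called 4, without KO 2 it called 2 and without KO 1 it called 0. Ighg2b (4.40) and Ighg2c (3.83) turned to -0.76 and -0.48 once the secreting barcodes were taken out, and Ighg3 (-3.61) turned to 0.35.

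The remaining question is how much of these transcripts lay in cells that are not B cells. T cell-like cells, the largest class, had 132 and 144 CPM of Ighm in KO, against 67.0 and 109 CPM in Control. That was 4.22% and 4.20% of the B cell-like level in KO, against 2.96% and 4.09% in Control. Igkc had 93.4 and 90.0 CPM in T cell-like cells of KO, against 71.4 and 55.8 CPM in Control, or 1.71% and 1.23% of the B cell-like level against 1.26% and 0.976%. These small shares do not hold for every gene. Igha, which was low in B cell-like cells, was in T cell-like cells at 24.7% and 68.7% of that level in KO, against 21.4% and 31.4% in Control. How much of the Igha in B cell-like cells is background was not tested. An Ighm UMI was found in 23.2% and 33.1% of T cell-like cells in KO, against 8.37% and 21.5% in Control, and in 94.98% and 97.3% of B cell-like cells against 81.5% and 95.3%. Median depths of the T cell-like cells were 2175.5 and 3334 UMIs in KO, against 1207.5 and 2403 in Control. Thinned to 500 UMIs per cell, the shares with Ighm were 6.61% and 5.90% in KO, against 3.55% and 5.31% in Control.

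In T cell-like cells 5 genes other than Jchain were tested and edgeR's quasi-likelihood test called 0, where 0.838% of 11460 genes were called. Of the 5, 3 had an unadjusted p under 0.05 by edgeR (14.6% of all genes), and DESeq2 gave 4 and called 0 after adjustment. Ighd was at 1.15 ± 0.26 (adjusted p = 0.0816), Igkc at 0.52 ± 0.13 (0.118) and Ighm at 0.57 ± 0.22 (0.258). Leaving out Control 1 called 2 (Ighd and Igkc), and leaving out Control 2 called 3 (Ighm, Ighd and Igha). KO libraries held larger shares of B cell-like cells, and the part of free RNA in these values was not tested.

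The ratio of Ighm to Igkc was set side by side for the classes, as a description. Per Igkc UMI, B cell-like cells held 0.573 and 0.469 Ighm UMIs in KO, against 0.397 and 0.467 in Control. T cell-like cells held 1.42 and 1.60 in KO, against 0.938 and 1.96 in Control. Natural killer or innate lymphoid-like cells held 1.95 and 3.13, against 3.22 and 2.21, and monocyte-derived macrophage-like cells 2.29 and 3.38, against 1.43 and 1.47. The ratio was higher than in B cell-like cells of the same library in all 4 libraries for each of the 3 classes, and secreting barcodes had the lowest ratios of these 5 classes, 0.0494 and 0.00173 in KO against 0.212 and 0.232 in Control. A rearranged mu transcript carries a variable segment, whereas germline transcripts of the mu constant region do not. T cell-like cells held 0.689 and 0.459 Ighv UMIs per 100 Ighm UMIs in KO, against 2.56 and 0.570 in Control. B cell-like cells held 2.46 and 1.51 in KO, against 5.02 and 3.40 in Control, so T cell-like cells were below B cell-like cells of the same library in all 4. The T cell-like values rest on only 7 and 6 Ighv UMIs in KO, against 5 and 6 in Control. Ighv UMIs were counted for all heavy chain classes together, and a germline origin of the Ighm UMIs was not tested. For kappa the values over the 4 libraries were 1.80 Igkv UMIs per 100 Igkc UMIs in T cell-like cells and 1.82 in B cell-like cells.

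**Figure D4:**
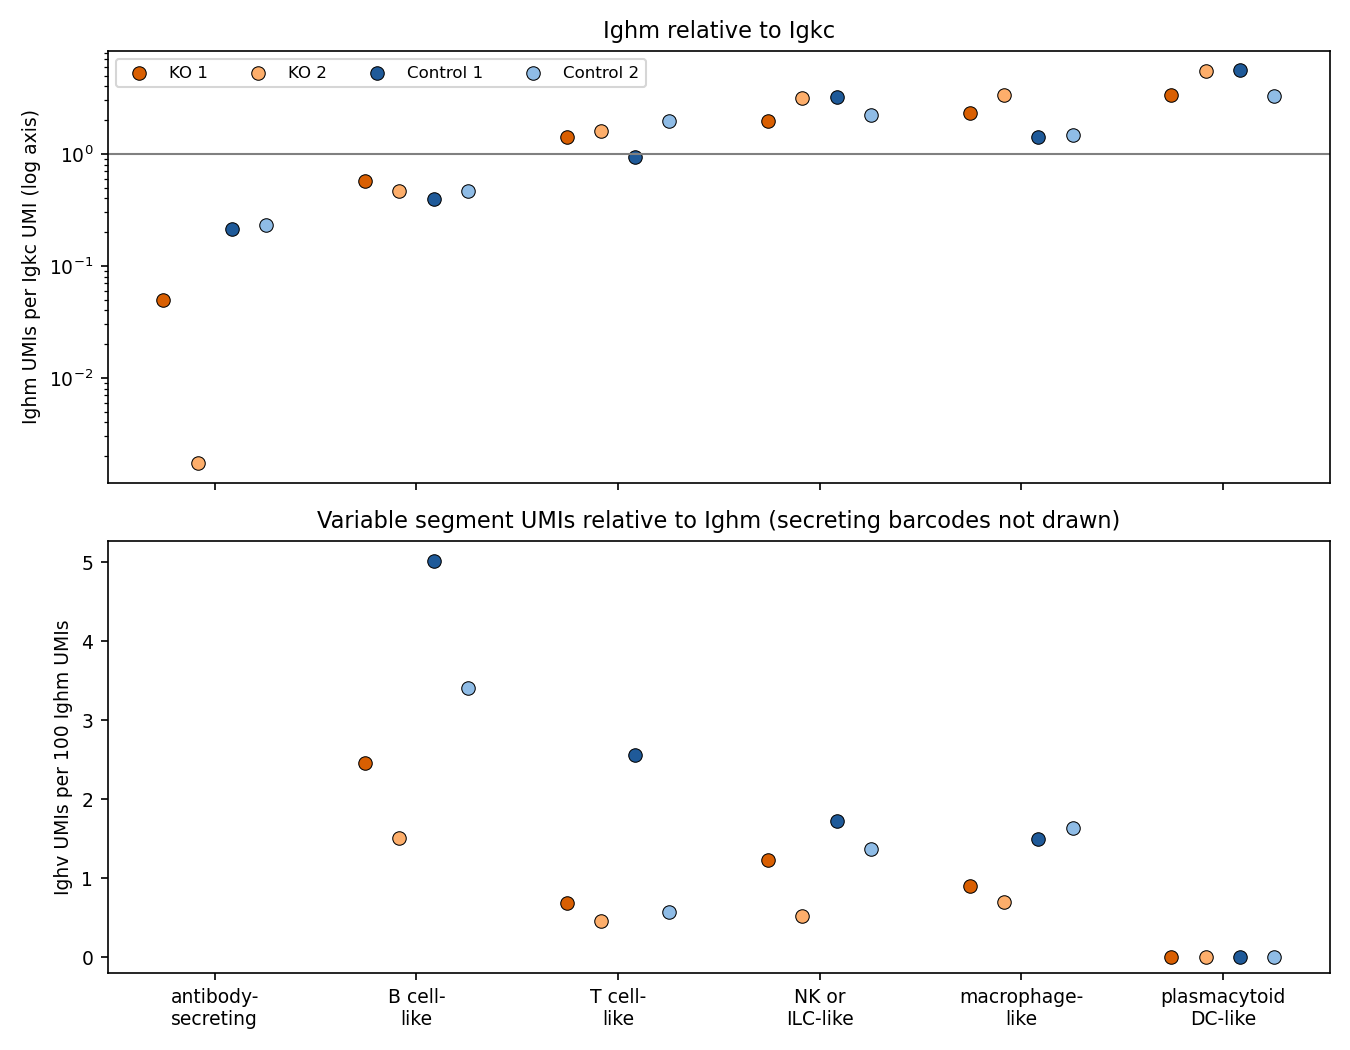
Upper panel, Ighm UMIs per Igkc UMI, and lower panel, Ighv UMIs per 100 Ighm UMIs, by cell class with 1 point per library. T cell-like cells lie at 0.938 to 1.96 Ighm UMIs per Igkc UMI and B cell-like cells at 0.397 to 0.573.

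Among the 5 other named classes with at least 20 cells in each library, edgeR called 2 of the 3 genes tested in conventional dendritic-like cells, where 0.14% of 5729 genes were called. Igkc had 7 and 136 UMIs in 58 and 55 cells of KO, against 33 and 36 UMIs in 478 and 250 cells of Control, a log2 difference of 2.72 ± 0.50 (adjusted p = 0.0301). Iglc2 was at 3.75 ± 0.59 (adjusted p = 0.00943). In KO 2 a single barcode of 18276 UMIs held 128 of the 136 Igkc UMIs, 30 of the 31 Iglc2 UMIs and 51 Cd79a UMIs, Cd79a being a B cell gene. Without that barcode neither was called, and Igkc was at -0.18 ± 0.48. DESeq2 called neither. None of the genes was called in macrophage-like cells (1.46% of all genes called), natural killer or innate lymphoid-like cells (1.84%), neutrophil-like cells (0.518%) or cycling cells (0.0188%). At an unadjusted p of 0.05 edgeR and DESeq2 each gave 1 gene in macrophage-like cells, 2 in cycling cells and 0 in the other 2 classes, and DESeq2 called 0 in all 4.

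The genes outside the immunoglobulin loci whose levels followed these genes most closely were taken over 41 sums by library and class, in 12 classes that share libraries and depth. For Jchain they were Derl3 (Pearson r = 0.825), Tnfrsf17 (0.793), Il9r (0.778), Mrgpre (0.729) and Ccr10 (0.709). For Igha the first 4 were the same genes, from 0.832 for Derl3 to 0.694 for Mrgpre, followed by Rhebl1 (0.675). Ighm went with Fcrla (0.789), Cd79b (0.768), Lpgat1 (0.766), Foxp1 (0.761) and Fcmr (0.759). These values describe the libraries and carry no test.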

How the data were processed

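The authors deposited, per the file headers, 1 sparse matrix per library of whole-number UMI counts per gene and barcode. Cell Ranger 3.1.0 and genome build mm10 are named in the submitters' processing notes. No normalization had been applied to the deposited counts. Barcodes with at least 500 UMIs, 250 genes and at most 25% mitochondrial UMIs were kept, which removed none below 500 UMIs since the files hold none. Doublets were marked with Scrublet through scanpy 1.11.5 (Python 3.11.15). The caller marked at least 0.5% of barcodes only in KO 2 (84 removed), and in the others the highest scores were removed at 0.8% per 1000 barcodes (415 in KO 1, 183 in Control 1 and 411 in Control 2). Cells were clustered with 2000 variable genes, 30 components and Leiden resolution 1, with every immunoglobulin gene left out, and clusters were named from marker lists.

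Secreting barcodes, counted among all barcodes, were kept out of the other classes. Counts were summed per library and class and tested with edgeR 4.0.16 in R 4.3.3 (trimmed mean of M values, filterByExpr, quasi-likelihood, Benjamini-Hochberg over all genes tested). KO was set over Control, or secreting barcodes over B cell-like cells. SE is the log2 fold change divided by the square root of F. Alternatives used DESeq2 1.42.0, another scaling, no filter, single libraries left out, and other clusters and gates. Added after the data were seen were edgeR's robust option for the spread and sums without single barcodes. UMI counts were not divided by gene length, so ratios between genes are compared only across classes and libraries. Shares have 95% exact binomial intervals (Clopper-Pearson), which cover counting error only. The tests were tested on simulated counts. The gene IDs matched GENCODE for 99.6% of 32285. The 10 genes and all gene lists were chosen with earlier results of these data known. Named genes were the 10 genes, the other constant genes as values, at most 4 per list by smallest p, and the 5 closest by correlation.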

Additional observations from a re-analysis of the deposited data

How the results depend on the processing

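Of 554 alternative values, 73 for shares and counts stayed within 1.5 times or the spread between libraries and 43 did not. For single genes 328 kept direction and call, 34 changed sign, 19 lost the call, 56 gained it and 1 moved. Counts called here include Jchain, whose values outside the secreting barcodes were limited by their definition. Without Jchain, B cell-like cells had 2 with the replicate block and 2 without the filter. The correlation of deviations between libraries of the same replicate number was 0.103 in B cell-like cells and 0.0339 over all kept cells. With 2 pairs that cannot settle whether replicate numbers pair the libraries. The replicate block called 3 of the 10 genes in B cell-like cells (406 genes in all), 8 over all kept cells (3484) and 6 in other classes, and put Iglc2 in T cell-like cells at -0.034. Without the filter on low counts the counts were 3 (182 in all), 9 (3365) and 9. DESeq2 gave 19 genes in B cell-like cells, 4 of the 10 over all kept cells, 0 in other classes and 1072 genes in secreting barcodes. The robust spread gave 1 in other classes and 3 in secreting barcodes, or 4 with all 4 libraries. The secreting share difference (0.102 percentage points) was 0.168 with 3 or more Jchain UMIs, 0.0674 with 10 or more and 0.130 over kept cells.

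B cell-like cells had 1 called gene with immunoglobulin genes out of the library sizes, 1 at Leiden resolution 2.0 (74 in all) and 1 with secreting barcodes kept, and 11 genes in all at 10% mitochondrial UMIs. With secreting barcodes kept, Ighm was -0.44, Igkc -0.76, Ighg2b 3.54 and Ighg2c 3.09, other classes had 6 calls and Jchain in T cell-like cells was 2.46. Without 1 dendritic-like barcode other classes had 0 calls and Igkc there was -0.18. Without secreting barcodes, over all kept cells, Ighg2b was -0.76, Ighg2c -0.48, Ighg3 0.35 and Jchain -1.07. Values near 0 changed sign in B cell-like cells: Igha to 0.000955 at 10% mitochondrial UMIs, and Iglc2 to 0.021 (DESeq2, or 10% mitochondrial UMIs), 0.020 (1000 UMIs), 0.041 (no filter), 0.038 (immunoglobulin genes out), 0.0061 (clusters with immunoglobulin genes) and 0.031 (marker gate). The cause was not tested.

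Leaving out 1 library each gave 0 to 2 called of the 10 genes in B cell-like cells (26 to 136 in all), 0 to 5 over all kept cells (13 to 4720), 0 to 8 in other classes and 5 to 8 in secreting barcodes (593 to 1576). The secreting share difference ran from 0.0853 to 0.119, the Igha share difference from 13.3 to 43.6, the switched share from -1.65 to -0.0966 and the Ighd share of heavy chain UMIs from -1.19 to 2.80. Signs changed within these log2 ranges: Igha -0.60 to 0.39, Ighg3 -2.50 to 0.63, Igkc -0.15 to 0.22 and Iglc2 -0.069 to 0.068 in B cell-like cells; Ighg2c -1.05 to 4.80, Ighg3 -5.78 to 0.61 and Jchain -0.58 to 1.52 over all kept cells; Iglc2 -0.50 to 0.80 in T cell-like cells; Ighm -0.93 to 1.98 in secreting barcodes. With 2 libraries a group and 9 to 19 secreting barcodes each, differences in class use were not detectable by the exact test.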

Other observations

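Plasmacytoid dendritic-like cells, 18 and 27 in KO 1 and KO 2 against 61 and 53 in Control 1 and Control 2, carried constant gene transcripts in other proportions than B cell-like cells. The class had too few cells in KO 1 to be tested. Ighm had 1154 and 920 CPM for KO, against 802 and 796 CPM for Control, which was 36.9% and 26.8% of the level in B cell-like cells of the same library, against 35.5% and 29.8%. Iglc3 had 37 and 117 UMIs in KO, against 100 and 148 in Control. Its level was 85.6% and 90.0% of that in B cell-like cells in KO, against 112% and 87.6% in Control. Iglc2, which differs from Iglc3 at 11 coding bases, was at 7.69% and 4.50% in KO, against 5.46% and 5.14% in Control. Igkc was at 6.31% and 2.30% in KO, against 2.54% and 4.25% in Control. The class held 520 Ighm UMIs and no Ighv UMI over the 4 libraries, which allows up to 0.577 per 100, while B cell-like cells had 2.46 per 100. A low value was not particular to the class. Conventional dendritic-like cells had 1 Ighv UMI beside 270 Ighm UMIs (0.370 per 100), and T cell-like cells had 0.672 per 100.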
